A study of Mus musculus with 12 samples.

Results

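The potassium channel genes described here are the 94 protein-coding mouse genes, of 21631 in the gene table, whose symbol starts with Kcn. The rule uses the symbol and no measured value. Accessible chromatin at these genes was compared among 4 sorted populations of SHH medulloblastoma, the cerebellar tumour driven by Sonic hedgehog signalling, by ATAC-seq, in which a transposase cuts open chromatin. All 12 libraries came from untreated endpoint tumours of Ptch1+/- mice, heterozygous for the hedgehog receptor gene Ptch1, so every group carried the same genotype and no group was normal cerebellum. The constructs that carry the sorting reporters and the ages of the mice are not given in the sources used here, and each library was made from 35000 to 50000 cells. Cells were sorted on eGFP signal into SOX2+ (4 libraries), the compartment the submitters call stem-like, and SOX2- (4 libraries), the bulk of the tumour. In a second sort SOX2+ cells were divided on RFP signal into cycling SOX2+/MKI67+ (2 libraries) and non-cycling SOX2+/MKI67- (2 libraries). The labels number the replicates, 4 or 2 a group, without saying that they came from separate animals, so a p-value here reflects how far these libraries vary, which could be technical variation alone.

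Potassium channels set the resting potential of a cell and repolarise it after activity. The pore-forming alpha subunits fall into voltage-gated channels (Kv), inward rectifiers (Kir, the Kcnj genes), tandem-pore leak channels (K2P, the Kcnk genes) and channels opened by intracellular calcium or sodium. Auxiliary subunits change how the pore opens or where it sits. In the brain, neurons rely on Kv and calcium-activated channels to shape firing, and glia carry strong inward rectifier currents that take up extracellular potassium.

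The 94 genes comprised 40 Kv alpha, 15 Kir, 14 K2P and 8 calcium- or sodium-activated channel genes and 17 auxiliary subunit genes, in 21 subfamilies. A peak was given to the nearest protein-coding gene when its midpoint lay inside the gene's span or within 100 kb of it. On this rule 1220 of the 218906 peaks in the 12 lists belonged to a Kcn gene, and overlapping peaks of the lists merged into 334 Kcn regions among 44242 regions in all. Just inside the limit, 6 regions lay 90 to 100 kb from their Kcn gene and were listed in 1 to 3 libraries; just outside it, 1 region lay 100 to 110 kb from Kcnh5. A peak was listed for 79 of the 94 genes. The other 15 were at 0 in every list: Kcnj13, Kcnj14, Kcnk6, Kcnk7, Kcnk15, Kcna7, Kcnd1, Kcns1, Kcnv2, Kcnt1, Kcnu1, Kcne2, Kcne3, Kcnmb1 and Kcnmb3. Another 5 genes had a peak in 1 library only, which left 74 genes listed in 2 or more libraries for testing.

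The lists held 7009 to 26206 peaks, and the shortest were SOX2- replicate 1 (7009), SOX2+ replicate 2 (9377) and SOX2- replicate 3 (12660). The Sox2 locus had 0, 1, 1 and 1 peaks in the SOX2- libraries and 5, 2, 6 and 4 in the SOX2+ libraries, groups that did not overlap, with 3 to 6 in the second sort. The Mki67 locus had 2 and 1 peaks in SOX2+/MKI67- and 2 and 5 in SOX2+/MKI67+ libraries, groups that touched at 2. It had 2, 5, 2 and 5 in SOX2- and 3, 1, 2 and 3 in SOX2+ libraries. Of the cell type marker lists, astrocyte and Bergmann glia genes took 0 to 4.20 peaks per 10000 in SOX2- and 3.20 to 8.15 in SOX2+ lists, oligodendrocyte lineage genes 4.28 to 7.38 and 9.68 to 16.0, and granule neuron progenitor genes 5.71 to 13.7 and 0 to 8.15. The share of neuronal genes was 7.13 to 15.3 in SOX2- and 4.27 to 9.17 in SOX2+ lists, that of pericyte and endothelial genes 0 to 4.96 and 4.07 to 5.14, and that of microglial genes 0 to 0.922 and 1.02 to 1.58. The pericyte and endothelial list shares Cspg4 with the oligodendrocyte list, at 0, 2, 0 and 1 peaks in SOX2- and 4, 3, 2 and 5 in SOX2+ libraries. In the limma fit described below, 2 of its 6 tested members had a positive SOX2+ minus SOX2- difference, and the median was -0.34. Aqp4, Aldh1l1, S100b, Aldoc, Sox10 and Nkx2-2 were at 0 in all 4 SOX2- lists, and Cx3cr1, Csf1r and C1qa were at 0 in all 12. Fewer cells of a type and less open chromatin per cell cannot be told apart in these sorted bulk samples.

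The sequences before 4 Kcn start sites show the kinds of promoter the results turn on. They are RefSeq sequences of build GRCm38.p6, 250 bases ending just before the start, 5' to 3' on the gene's own strand, with the bases inside a listed region in capitals. The Kcnj10 promoter, chr1:172340960-172341209 on the plus strand, lies whole in a region found in 2 SOX2- and 3 SOX2+ lists and in all 4 lists of the second sort. An internal start of Kcnip1, chr11:33843687-33843936 on the minus strand, overlaps a region found in all 4 SOX2+ lists, no SOX2- list, both SOX2+/MKI67- lists and 1 SOX2+/MKI67+ list. The Kcne1l promoter, chrX:142306199-142306448 on the minus strand, was found in 3 SOX2- lists, no SOX2+ or SOX2+/MKI67- list and 1 SOX2+/MKI67+ list. The Kcnj2 promoter, chr11:111065914-111066163 on the plus strand, was listed in all 12.
Kcnj10: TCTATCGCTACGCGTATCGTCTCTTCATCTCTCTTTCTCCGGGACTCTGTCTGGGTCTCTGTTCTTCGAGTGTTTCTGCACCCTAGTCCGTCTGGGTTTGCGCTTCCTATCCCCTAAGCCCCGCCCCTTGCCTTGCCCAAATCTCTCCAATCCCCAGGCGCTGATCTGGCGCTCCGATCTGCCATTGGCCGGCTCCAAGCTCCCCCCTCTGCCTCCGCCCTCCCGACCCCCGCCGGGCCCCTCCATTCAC
Kcnip1: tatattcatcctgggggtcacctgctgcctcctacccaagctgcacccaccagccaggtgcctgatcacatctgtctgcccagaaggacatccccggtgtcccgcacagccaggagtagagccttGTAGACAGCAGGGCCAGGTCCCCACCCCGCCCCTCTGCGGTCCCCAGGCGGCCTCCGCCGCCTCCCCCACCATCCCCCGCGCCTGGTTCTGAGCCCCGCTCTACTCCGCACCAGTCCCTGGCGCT
Kcne1l: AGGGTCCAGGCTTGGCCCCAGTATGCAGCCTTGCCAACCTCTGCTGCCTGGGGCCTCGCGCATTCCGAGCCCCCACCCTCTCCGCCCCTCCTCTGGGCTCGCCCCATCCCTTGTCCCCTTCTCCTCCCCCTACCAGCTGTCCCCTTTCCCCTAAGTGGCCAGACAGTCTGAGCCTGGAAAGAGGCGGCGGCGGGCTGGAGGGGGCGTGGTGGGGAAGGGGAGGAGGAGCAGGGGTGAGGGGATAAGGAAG
Kcnj2: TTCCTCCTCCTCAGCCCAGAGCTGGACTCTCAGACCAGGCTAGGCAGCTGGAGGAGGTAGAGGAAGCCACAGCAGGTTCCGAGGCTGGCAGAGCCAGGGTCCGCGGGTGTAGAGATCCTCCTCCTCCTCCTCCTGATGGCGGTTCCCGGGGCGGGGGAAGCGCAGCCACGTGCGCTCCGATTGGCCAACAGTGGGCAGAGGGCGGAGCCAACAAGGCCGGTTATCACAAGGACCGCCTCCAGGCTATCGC

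RefSeq promoter windows, from 250 bases before to 50 after a start, were found for 69 of the 94 genes, 94 windows in all. A peak of all 12 lists overlapped 3 of them, those of Kcnj2, Kcnmb4 and Kcnt2, or 3.19%, beside 22.5% of 21045 windows of all protein-coding genes. No list had a peak on 47 of the 94 windows (50.0%, beside 46.0% of all windows). The 47 windows without a peak had a median GC content of 53.0% and a median of 6 CpG dinucleotides, and the 44 listed in 1 to 11 libraries had 63.7% and 17.5, so the windows without a peak were poorer in CpG. The same order held over all genes, with 4 CpGs in windows without a peak and 25 in those of all 12 lists. A search of both strands found the SOX motif AACAAT in 6.38% of Kcn windows and 8.91% of all windows, the E-box CAGCTG in 25.5% and 15.7%, and the NFI motif TTGGCA in 11.7% and 13.1%. None of the 4 promoters printed above held AACAAT in its window; the Kcne1l and Kcnj2 windows held CAGCTG.

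Kcn genes took a larger share of longer lists in every group. The share was 21.4, 66.4, 42.7 and 57.2 Kcn peaks per 10000 peaks in the SOX2- libraries (46.9 ± 19.6, SD, n = 4) and 48.2, 32.0, 57.5 and 59.4 in the SOX2+ libraries (49.3 ± 12.5, SD, n = 4). It was 58.8 and 56.8 in SOX2+/MKI67- and 54.4 and 66.4 in SOX2+/MKI67+ libraries. The lowest values belonged to the 3 shortest lists, and the SOX2+ and SOX2- ranges overlapped over most of their length. Kcn peaks also stood low in their lists: ranked by the authors' score, with 0% the strongest, the median Kcn peak lay at 58.1% to 75.2% of its list, and its median fold enrichment was 3.51 to 4.21 beside 4.10 to 4.62 for all peaks. Kcn regions were shared by fewer libraries than regions in general, with 12 of 334 (3.59%) listed in all 12 libraries beside 12.2% of all regions. They lay inside gene spans in 53.0% of cases, beside 38.5% of all regions, and within 1 kb of a gene end in 19.8%, beside 27.3%.

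**Figure D1:**
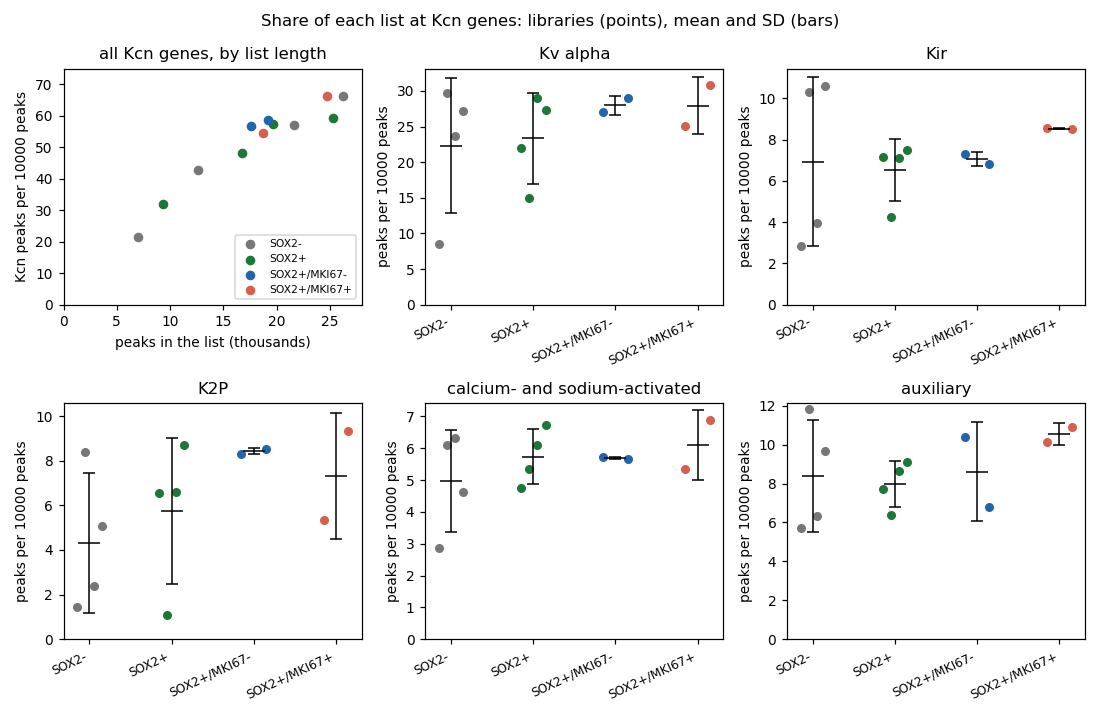
The first panel plots Kcn peaks per 10000 peaks against the number of peaks in each of the 12 lists, and the others plot the share of each class by group, with points for libraries and bars for the mean and SD (n = 4, 4, 2 and 2). The share rises from 21.4 in the shortest list to 66.4 in the longest, and within every class the SOX2+ and SOX2- points overlap.

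No class separated SOX2+ from SOX2- cells. Kv alpha genes took 22.3 ± 9.50 peaks per 10000 in SOX2- and 23.3 ± 6.34 in SOX2+ libraries (SD, n = 4 each), Kir genes 6.93 ± 4.10 and 6.52 ± 1.51, and K2P genes 4.32 ± 3.13 and 5.74 ± 3.27. Calcium- and sodium-activated channel genes took 4.97 ± 1.60 and 5.73 ± 0.862, and auxiliary genes 8.39 ± 2.89 and 7.98 ± 1.19. Each difference of means was smaller than the SD of either group. In the second sort the Kir share was 7.28 and 6.81 in SOX2+/MKI67- and 8.54 and 8.50 in SOX2+/MKI67+ libraries, groups that did not overlap, and the Kv alpha and K2P ranges overlapped.

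Among the subfamilies, the share of Kcna, the Shaker-related Kv genes, was 0 to 3.43 per 10000 peaks in SOX2- libraries, 2.13 to 5.54 in SOX2+, 5.72 and 6.81 in SOX2+/MKI67- and 3.20 and 4.45 in SOX2+/MKI67+. The non-cycling libraries thus stood above every other library for Kcna. Kcnn, a subfamily of calcium-activated channels, took 1.43 to 4.74 in SOX2- and 4.17 to 5.60 in SOX2+ libraries. Kcnip, the calcium-binding partners of Kcnd channels, took 1.43 to 5.34 and 3.20 to 5.09. The auxiliary subfamilies Kcne (0 to 1.91 and 0 to 0.79) and Kcnab (0 to 2.31 and 0 to 1.58) had their highest shares in SOX2- libraries, with overlapping ranges. The Kcnq share, of a subfamily with members that carry the neuronal M current, was 4.28 to 6.92 and 4.17 to 8.15.

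Gene by gene, SOX2+ was compared with SOX2- by limma on log2(peaks + 1) over the 14246 genes listed in 2 or more libraries, with list length as a covariate and Benjamini-Hochberg adjustment over all genes. None of the 74 tested Kcn genes passed an adjusted p of 0.05 in either direction, in a fit that called 127 genes (0.891%, with 0.758% higher). Sox2, the gene the sort was based on, did not pass in this fit either (1.49 ± 0.26, limma adjusted p 0.0576). An unadjusted p under 0.05 was reached by 8 Kcn genes (10.8%), 4 higher and 4 lower, beside 13.3% of all genes. The order of these shares changed with the setting, as the last section gives. The median log2 difference was -0.03 over the 74 Kcn genes and 0 over all genes. By class, 2 of 32 Kv alpha, 3 of 13 Kir, 1 of 10 K2P, 1 of 6 calcium- or sodium-activated and 1 of 13 auxiliary genes had an unadjusted p under 0.05. For no Kcn gene did the peak counts of SOX2+ and SOX2- separate without overlap, beside 1.09% of all genes higher and 0.133% lower, and the lowest exact permutation p among the 24 named genes was 0.0857. A difference that misses the threshold does not show that the groups are alike, since counts of a few peaks per gene leave standard errors of 0.13 to 0.62 on the log2 scale, Kcnj2 with its constant count aside.

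**Figure D2:**
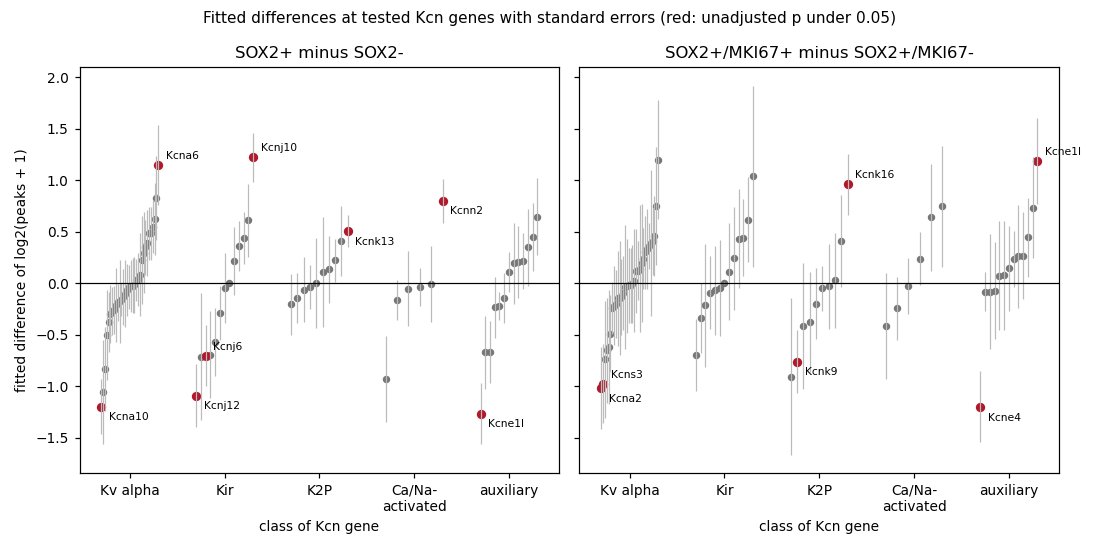
Each point is a tested Kcn gene with its standard error, by class, for SOX2+ minus SOX2- (left) and SOX2+/MKI67+ minus SOX2+/MKI67- (right), on the log2(peaks + 1) scale; red points are the 8 and 6 genes with an unadjusted p under 0.05. None passed after adjustment, and differences of both signs occur in every class.

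Among the inward rectifiers, Kcnj10 encodes the main potassium-buffering channel of astrocytes and oligodendrocytes. It had 0, 2, 0 and 2 peaks in the SOX2- libraries, 4, 2, 4 and 4 in SOX2+, 4 and 4 in SOX2+/MKI67- and 4 and 3 in SOX2+/MKI67+. The SOX2+ libraries held the higher counts, and the groups touched at 2. The fitted log2 difference was 1.22 ± 0.24 (SE), with an adjusted p of 0.0737 by limma and an exact permutation p of 0.0857 over the 8 libraries, two-sided, where 0.0286 is the smallest possible. With the 1705 genes left out that had the same count in every list, an alternative added after seeing the data, 1.86% of genes were called, 1.44% as higher, and the limma adjusted p of Kcnj10 was 0.0301. Over all 24 alternatives run it ranged from 0.00414 to 0.999, always with a positive difference. Its location, chr1:172341210-172374085, gave it a catchment of 40 kb, and per 100 kb of catchment it had a mean of 2.50 peaks in SOX2- and 8.75 in SOX2+ libraries.

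The Kcnj10 peaks fell into 5 regions. The strongest, chr1:172349851-172350497 inside the gene 8.96 kb from the start, was listed in all 4 SOX2+ libraries and all 4 of the second sort and in no SOX2- library. It ranked between 3.34% and 17.0% of those lists, with a fold enrichment of 5.34 to 7.70. A weaker region 1.76 kb from the start, chr1:172342734-172343202, had the same pattern over the 12 libraries. By contrast the promoter and a region 23.7 kb from the start were listed in the long SOX2- lists 2 and 4 as well. Of the 8 astrocyte and Bergmann glia markers 7 were tested, with positive differences from 0.03 ± 0.32 (Gfap) to 1.45 ± 0.33 (Aldh1l1) and 0 past the threshold, and of the 10 oligodendrocyte markers Olig2 and Nkx2-2 passed as higher in SOX2+; their part in the Kcnj10 values was not tested.

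**Figure D3:**
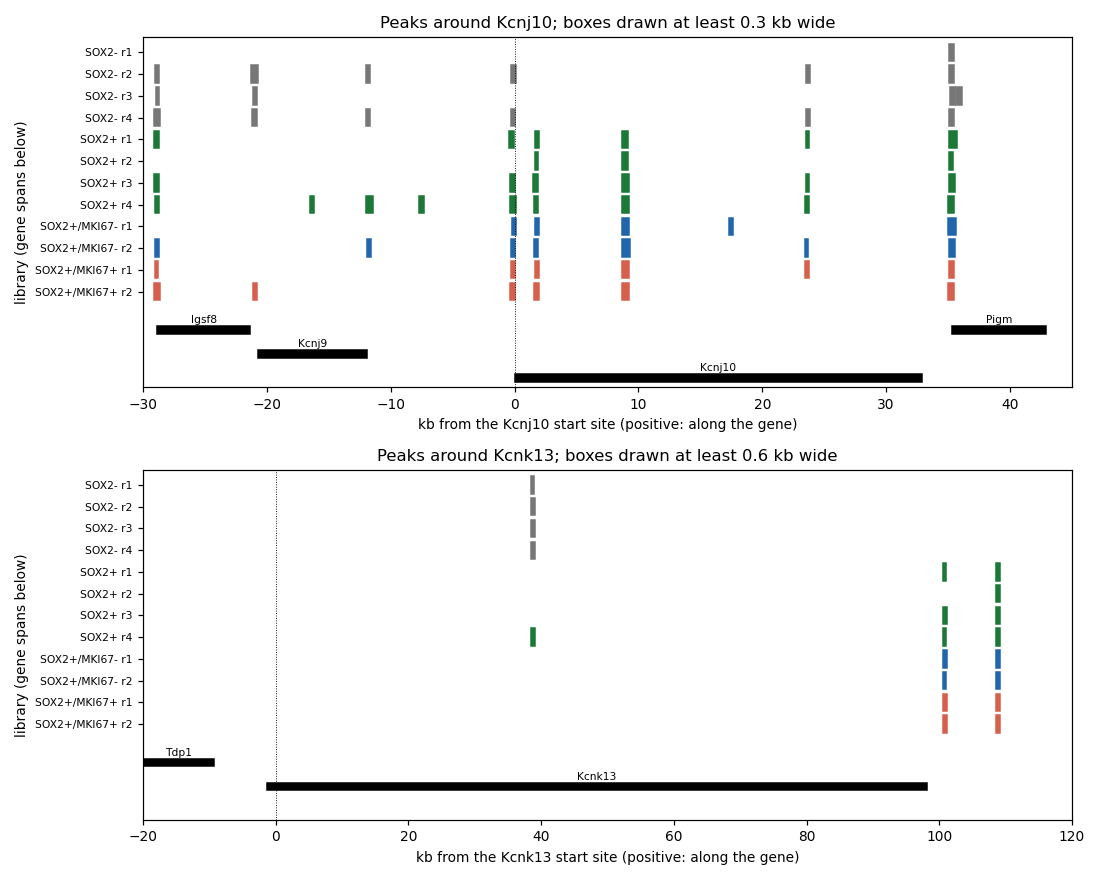
Boxes mark the peaks of each of the 12 libraries against distance in kb from the start site of Kcnj10 (top) and Kcnk13 (bottom), coloured by group, with gene spans as black bars. At Kcnj10 the peaks 1.76 and 8.96 kb from the start occur in all 8 libraries sorted as SOX2+ and in no SOX2- library; at Kcnk13 a peak 38.8 kb from the start occurs in all 4 SOX2- libraries and peaks past the gene's far end in SOX2+ libraries.

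Kcnj16, whose channel assembles with that of Kcnj10, had 0, 0, 0 and 1 peaks in SOX2- libraries and 1, 0, 1 and 1 in SOX2+, with 1 in each library of the second sort. Its region 0.76 kb before a start, chr11:111022944-111023265, was found in 3 SOX2+ lists and no SOX2- list. Its neighbour Kcnj2, a strong inward rectifier, had exactly 1 peak in every list, at its promoter. Kcnj12, of the same subgroup as Kcnj2, went the other way, with 1, 2, 0 and 2 peaks in SOX2- libraries and 0 in all 8 libraries sorted as SOX2+. Its fitted difference was -1.09 ± 0.30 (limma adjusted p 0.177, and 0.000557 without SOX2- replicate 3, the library at 0). Over its 21 alternatives the highest was 0.415.

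The G protein-gated rectifiers of neurons are encoded by Kcnj3, Kcnj6 and Kcnj9. Kcnj6 had 0, 12, 3 and 7 peaks in SOX2-, 1, 1, 4 and 5 in SOX2+, 2 and 2 in SOX2+/MKI67- and 4 and 6 in SOX2+/MKI67+ libraries. The SOX2 groups overlapped, the longest list held the most peaks, and the fitted difference was -0.70 ± 0.29 (limma adjusted p 0.356). Kcnj3 had 0, 4, 0 and 6 peaks in SOX2- and 1, 0, 3 and 0 in SOX2+ libraries. Kcnj9 had 0, 2, 1 and 2 in SOX2- and 0, 0, 0 and 3 in SOX2+ libraries, and its SOX2--only region lay between it and Igsf8, 0.36 kb from the latter.

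Of the Kv alpha genes, Kcna6 had no peak in any SOX2- library and 2, 0, 1 and 4 in SOX2+, 2 and 3 in SOX2+/MKI67- and 1 and 2 in SOX2+/MKI67+. SOX2+ replicate 2, the short list, shared the 0 of the SOX2- group. The fitted difference was 1.15 ± 0.39 (limma adjusted p 0.244). Kcna6 sits beside Kcna1 and Kcna5 on chromosome 6, and the cluster of 3 genes had a mean of 1 peak in SOX2-, 4.25 in SOX2+, 7 in SOX2+/MKI67- and 5.5 in SOX2+/MKI67+ libraries. The Kcna cluster of chromosome 3 (Kcna3, Kcna2 and Kcna10) had means of 3.5, 2, 3.5 and 2 in the same order. There Kcna10, known from the inner ear, had 0, 5, 1 and 2 peaks in SOX2- and 0, 0, 0 and 1 in SOX2+ libraries and none in the second sort, a fitted difference of -1.20 ± 0.27 (limma adjusted p 0.104, and 0.0330 without SOX2+ replicate 2, in a range up to 0.711 over its 22 alternatives). Kcna2, an axonal channel of neurons, had 3 and 2 peaks in SOX2+/MKI67- and 1 and 1 in SOX2+/MKI67+ libraries.

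Kcnd3, a pore of the A-type current, held the most peaks of any Kcn gene, 70 over the 12 lists. Its counts were 1, 11, 2 and 7 in SOX2-, 5, 1, 5 and 8 in SOX2+, 7 and 7 in SOX2+/MKI67- and 5 and 11 in SOX2+/MKI67+ libraries, with the lowest counts in the short lists and the highest in the longest. Within the gene, regions went both ways: 2 were SOX2+-only, 37.9 and 60.7 kb from the start, and 1 was SOX2--only, 202 kb from it. Kcnq3 had 2 to 5 peaks in SOX2- and 2 to 8 in SOX2+ libraries and 2 regions listed in all 12 lists.

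Among K2P leak channels, Kcnk13 had different regions listed in the SOX2 groups. It had 1 peak in each SOX2- library and 2, 1, 2 and 3 in SOX2+ libraries, with 2 in each of the second sort, and a fitted difference of 0.51 ± 0.15 (limma adjusted p 0.207, and 0.0310 without SOX2+ replicate 2, in a range up to 0.944 over its 23 alternatives). The single SOX2- peak, at chr12:100003041-100003621 inside the gene, was found in all 4 SOX2- lists, in 1 SOX2+ list and in no list of the second sort. The SOX2+ peaks lay 2.65 and 10.6 kb past the gene's far end, in regions found in 3 and in 4 SOX2+ lists, in all 4 lists of the second sort and in no SOX2- list. With only peaks within 10 kb of a span counted, the fitted difference was -0.16, and with the stronger 50% of each list by score it was -0.21. Kcnk10, a leak channel opened by stretch and lipids, had 0, 5, 0 and 2 peaks in SOX2-, 2, 0, 3 and 3 in SOX2+, 2 and 4 in SOX2+/MKI67- and 3 and 5 in SOX2+/MKI67+ libraries. Kcnk1 had 0, 3, 0 and 1 in SOX2- and 1, 0, 1 and 1 in SOX2+ libraries, with 1 in each of the second sort. Both overlapped between the SOX2 groups, yet each held a SOX2+-only region, 12.5 kb from a start of Kcnk10 and 42.7 kb from the span of Kcnk1. Kcnk9, the main leak channel of cerebellar granule neurons, had 0, 3, 0 and 2 in SOX2-, 1, 0, 2 and 2 in SOX2+, 3 and 2 in SOX2+/MKI67- and 1 and 2 in SOX2+/MKI67+ libraries. Microglia are known to express Kcnk13. Of the 6 microglial markers Cx3cr1, Csf1r and C1qa were at 0 in all 12 lists. Ptprc, a general leukocyte marker, had 0, 0, 0 and 2 peaks in SOX2-, 2, 1, 2 and 2 in SOX2+ and 2 in each library of the second sort. Tmem119 went the other way, with 0, 1, 1 and 0 in SOX2-, 0, 0, 0 and 1 in SOX2+ and 0 in the second sort. P2ry12 had 0 in every SOX2- library, 0, 0, 0 and 1 in SOX2+, 1 and 0 in SOX2+/MKI67- and 0 and 1 in SOX2+/MKI67+. The list's share was 0 to 0.922 per 10000 in SOX2- and 1.02 to 1.58 in SOX2+ libraries, and its part in the Kcnk13 values was not tested.

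Of the calcium-activated channels, Kcnn2 had 0, 4, 2 and 3 peaks in SOX2-, 4, 3, 6 and 5 in SOX2+, 4 and 4 in SOX2+/MKI67- and 3 and 5 in SOX2+/MKI67+ libraries. The groups overlapped at 3 and 4, and the fitted difference was 0.80 ± 0.21 (limma adjusted p 0.172). It held 2 SOX2+-only regions inside its span; the stronger was listed in all 8 libraries sorted as SOX2+, at 3.12% to 66.8% of their lists. Kcnn3, of the same subfamily, had 0, 3, 3 and 2 in SOX2- and 2, 0, 3 and 5 in SOX2+ libraries.

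Among auxiliary subunits, Kcne1l had 0, 2, 2 and 2 peaks in SOX2- libraries, 0 in all SOX2+ and SOX2+/MKI67- libraries, and 2 and 1 in SOX2+/MKI67+. Only the short SOX2- replicate 1 shared the 0 of the SOX2+ group. The fitted difference was -1.26 ± 0.29 for the SOX2 sort (limma adjusted p 0.116) and 1.18 ± 0.41 for the second sort (limma adjusted p 0.807). Without SOX2- replicate 1 the limma adjusted p was 0.00117 and 0.0391, the lowest of ranges that reached 0.411 and 1 over 22 alternatives each. Its 2 SOX2--only regions, chrX:142305015-142305720 and the promoter region chrX:142306000-142306556, lay within 1 kb of a gene end. Kcnip1 had 0, 5, 0 and 1 peaks in SOX2-, 2, 1, 3 and 4 in SOX2+, 4 and 2 in SOX2+/MKI67- and 2 and 7 in SOX2+/MKI67+ libraries. Kcnip3 had 1, 3, 0 and 3 in SOX2-, 2, 2, 2 and 3 in SOX2+, 4 and 2 in SOX2+/MKI67- and 3 and 4 in SOX2+/MKI67+ libraries. The groups overlapped at both genes. Kcnip1 and Kcnip3, which tune A-type channels, each had a SOX2+-only region listed in all 4 SOX2+ libraries; that of Kcnip1 covers 125 of the 250 promoter bases printed above. Kcnrg, a regulator of Kv channels, was listed in every library, with 2 to 4 peaks in SOX2- and 2 to 3 in SOX2+ libraries and 2 regions listed in all 12 lists.

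**Figure D4:**
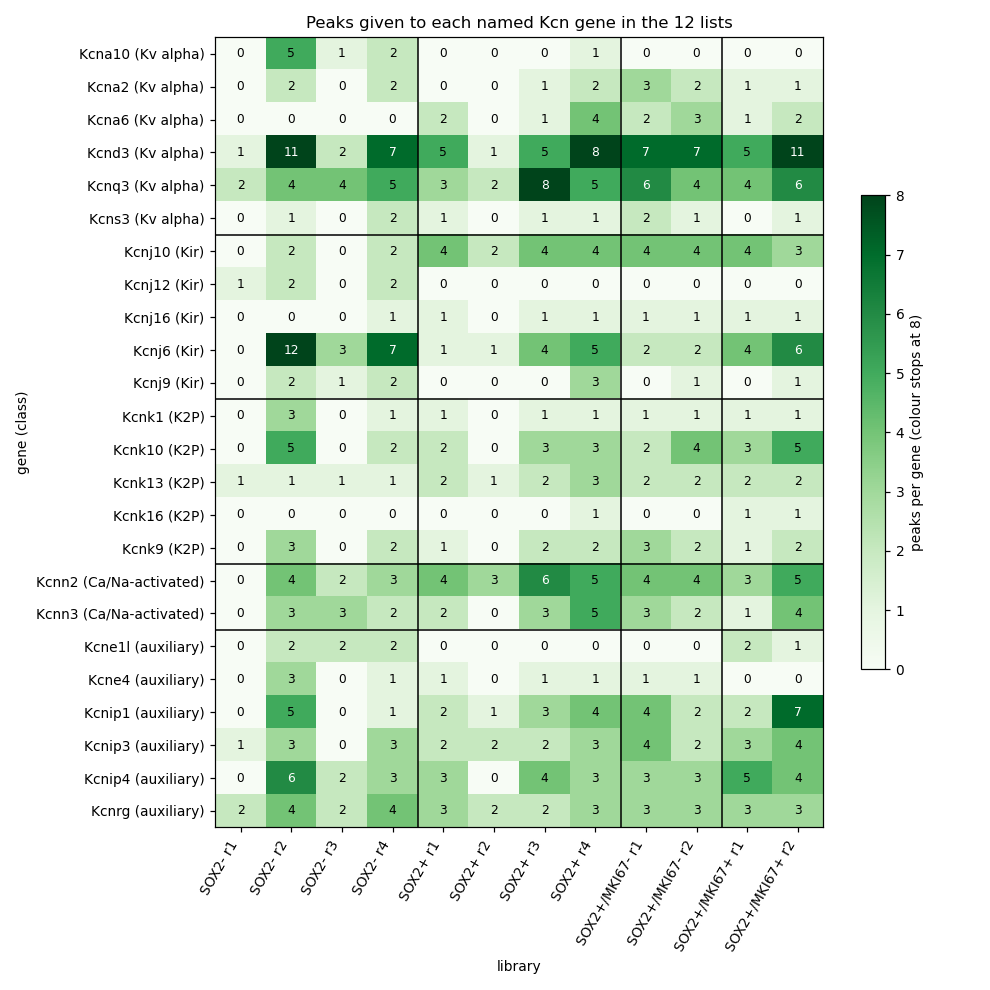
Numbers and colour give the peaks of each named Kcn gene (rows, by class) in each of the 12 libraries (columns, by group). Kcnj10 has 4, 2, 4 and 4 peaks in SOX2+ against 0, 2, 0 and 2 in SOX2- libraries, while Kcnj12 and Kcna10 have at most 1 peak in any library sorted as SOX2+.

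No Kcn gene passed the threshold between cycling and non-cycling SOX2+ cells. Mki67 itself did not pass in this comparison (0.64 ± 0.32, limma unadjusted p 0.0834). None of 74 passed in the limma comparison of SOX2+/MKI67+ with SOX2+/MKI67-, in a fit that called 32 genes (0.225%, with 0.119% higher), and 6 (8.11%) had an unadjusted p under 0.05, 2 higher and 4 lower, beside 4.65% of all genes. The median difference was -0.01 over Kcn genes and -0.02 over all genes. The higher ones were Kcnk16 and Kcne1l. Kcnk16, a leak channel known from the pancreas, had 1 peak in each SOX2+/MKI67+ library and 0 in both SOX2+/MKI67- libraries (0.96 ± 0.30, limma adjusted p 0.770, and 0.000191 without SOX2+ replicate 4, in a range up to 1 over its 20 alternatives). SOX2+ replicate 4 is outside this sort and held the only other Kcnk16 peak. Without it the counts did not vary within any group, so no conclusion is drawn from the low p. Kcne4, an inhibitory Kv subunit, was the reverse of Kcnk16, with 1 peak in each SOX2+/MKI67- and 0 in both SOX2+/MKI67+ libraries (-1.20 ± 0.34, limma adjusted p 0.718). That peak lay 32.6 kb from the Kcne4 span, in a region also found in 2 SOX2- and 3 SOX2+ lists. The Kcne4 promoter window had a peak in 0 lists. The silent Kv subunit gene Kcns3 (-0.97 ± 0.38), Kcna2 (-1.01 ± 0.40) and the leak channel gene Kcnk9 (-0.76 ± 0.31) were also lower, each with a limma adjusted p of 1.00. Counts did not overlap at 11 Kcn genes higher in SOX2+/MKI67+ and 2 lower, which is 14.9% and 2.70% of those tested beside 7.94% and 1.61% of all genes, with 2 libraries a group and the longest of the 4 lists in SOX2+/MKI67+.

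Regions listed in a single sorted group were counted at Kcn genes and over all regions. A region was called SOX2+-only when 3 or 4 SOX2+ lists and no SOX2- list held it, and the reverse for SOX2-. Of the 334 Kcn regions 14 (4.19%) were SOX2+-only, beside 4.1% of all regions, and 7 (2.10%) were SOX2--only, beside 1.54%. The 14 SOX2+-only regions lay at 10 genes, and none was within 1 kb of a gene end, beside 10.7% of all such regions. Of the 7 SOX2--only regions 3 were, beside 6.91%. A gene end here is an end of the full span, so internal starts do not count. The SOX2+-only region of Kcnip1 lay 0.12 kb after an internal start, and that of Kcnj16 lay 0.76 kb before an internal start. With a library of the group left out, the rule was loosened to 2 of the remaining 3 lists, so these counts changed the rule and the libraries together. So counted, the SOX2+-only regions numbered 21, 30 or 23 without SOX2+ replicate 1, 2 or 3. These were 6.29%, 8.98% and 6.89% of Kcn regions, beside 6.3%, 8.83% and 6.53% of all regions. The SOX2--only regions numbered 30 or 28 without SOX2- replicate 1 or 3 (8.98% and 8.38%, beside 8.41% and 7.8%). With the rule kept and SOX2+ replicate 3 left out, the SOX2--only regions numbered 12 (3.59%, beside 2.57%). The second sort was not used to choose them. All 14 SOX2+-only regions were listed in both SOX2+/MKI67- libraries, beside 80.3% of all SOX2+-only regions, and 11 of 14 in both SOX2+/MKI67+ libraries, beside 67.5%. None of the 7 SOX2--only Kcn regions was listed in a SOX2+/MKI67- library, beside 1.91% of all such regions in at least 1, while 5 of 7 were listed in at least 1 SOX2+/MKI67+ library, beside 49.7%.

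**Figure D5:**
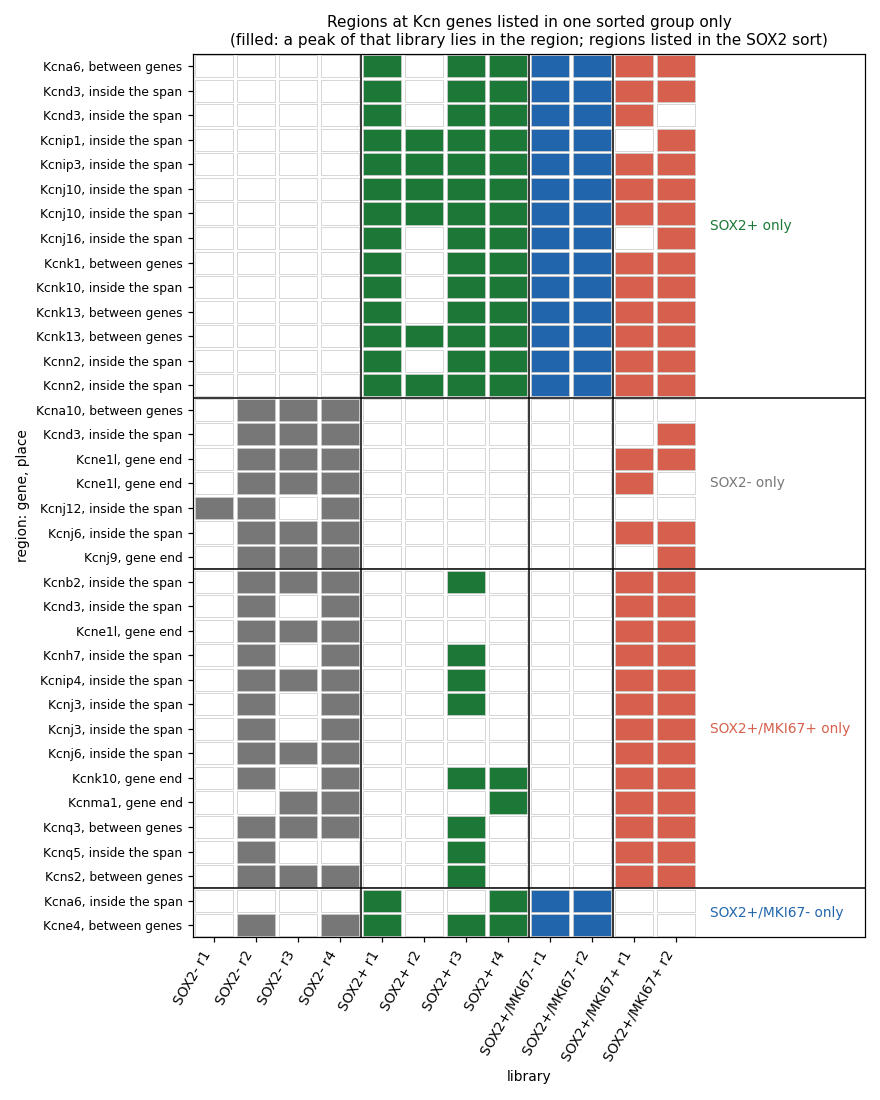
Each row is a Kcn region listed in 1 side of a sort only and in at least 1 library of the SOX2 sort, in 4 blocks by that group, and each filled cell is a library with a peak in it. The 14 SOX2+-only regions (top) are filled in both SOX2+/MKI67- libraries, and the 13 SOX2+/MKI67+-only regions drawn, of 16, are each filled in at least 1 SOX2- library.

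In the second sort 16 Kcn regions (4.79%, beside 4.03% of all regions) were listed in both SOX2+/MKI67+ and neither SOX2+/MKI67- library, and 2 (0.599%, beside 0.972%) the reverse, at Kcne4 and Kcna6. With 1 library of that sort left out, 1 list on its side had to hold or lack the region. The 2 counts were then 24 to 60 and 4 to 25. These were 7.19% to 18% of Kcn regions beside 5.75% to 13.9% of all, and 1.2% to 7.49% beside 1.22% to 4.83%. The 16 included 2 regions of Kcnj3 and 1 each of Kcnj6, Kcnb2, Kcnh7, Kcnq3, Kcnq5, Kcnip4 and Kcnma1. Of the 16, 13 (81.2%) were listed in at least 1 SOX2- library and 9 (56.2%) in at least 1 SOX2+ library, beside 83.8% and 78.1% of all such regions. The regions at Kcnip1 and Kcnk16 were listed in no library outside SOX2+/MKI67+.

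The other genes of potassium handling, 30 channel partners, pumps, transporters and regulators, were fitted in the same models. Of 22 tested none passed in either comparison, with medians of 0.14 for SOX2+ minus SOX2- and -0.09 for the second sort. Tmem175, a lysosomal potassium channel, had 1, 2, 1 and 2 peaks in SOX2- and 0, 0, 0 and 1 in SOX2+ libraries (-1.11 ± 0.19, limma adjusted p 0.0514). The Kcnd partner gene Dpp10 had 0, 0, 1 and 0 in SOX2- and 2, 1, 2 and 2 in SOX2+ libraries (1.17 ± 0.28, limma adjusted p 0.121). The chloride and potassium cotransporter gene Slc12a4 had 0, 1, 0 and 3 and 2, 2, 3 and 3 (0.94 ± 0.33, limma adjusted p 0.259).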

How the data were processed

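ATAC-seq libraries of 35000 to 50000 sorted cells were sequenced with 50 bp single-end reads, per the labels' protocols. The submitters' processing notes name Bowtie2, MACS2 and the build mm10. Tool versions, options and whether reads were shifted for the enzyme's cut are not given in the sources used here. Among the processed data, the authors deposited 1 peak list per library, each peak with a score (10 times the −log10 q-value), a ratio (fold enrichment over local background) and −log10 p-values and q-values. The deposited lists hold no read counts, so sequencing depth is unknown and a missing peak does not show closed chromatin. The number of peaks in a list was used in its place.

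Peaks went to the nearest of 21631 protein-coding genes in the RefSeq GRCm38.p6 gene table, within 100 kb; a peak inside more than 1 gene went to the one with the nearer end. The number of peaks a gene held was modelled in limma 3.58.1 (R 4.3.3) as log2(peaks + 1), over all 12 libraries in 4 groups with log10 list length as a covariate, for genes listed in 2 or more libraries; the threshold was a Benjamini-Hochberg adjusted p of 0.05. Single genes were also compared by an exact two-sided permutation test over the 8 libraries of the SOX2 sort. Overlapping peaks (at least 1 bp) were merged across lists with Python 3.11.15. The code was tested on simulated data.

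Named genes were those with an unadjusted p under 0.05, those with a region exclusive to one side of the SOX2 sort, and the 2 of each class with most peaks. Kcnj2, Kcnj3 and the genes of the SOX2+/MKI67+-only regions were named after their values were seen. Some genes are not reported here. The members and gene lists were chosen with earlier results of these data known. Alternatives covered equal list lengths, peak strength, the window, filters, the pseudocount, the covariate, a replicate block and leaving out each library.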

Additional observations from a re-analysis of the deposited data

Results flagged for a closer look

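Of 60 groups of 4 libraries looked at, 12 held a library far from the other 3, where chance gives about 1 in 20 for continuous values. In 11 of the 12 the values are small peak counts in which the other 3 libraries tie, so that rate does not apply to them and no excess is read from the number. SOX2+ replicate 2, the shortest SOX2+ list with 9377 peaks, was the low library in 6 of them. It had 4.27 Kir peaks per 10000 peaks (next lowest 7.13), 2 peaks at Kcnj10 where the others had 4, and 0 peaks at Kcne4, Kcns3, Kcnj16 and Kcnk1 where the others had 1. SOX2+ replicate 4, the longest SOX2+ list with 25272 peaks, was the high library in 4. It had 1 peak at Kcna10 and 1 at Kcnk16 where the others had 0, 3 at Kcnj9 where the others had 0, and 3 at Kcnip3 where the others had 2. In the SOX2- group, replicate 1 had 0 peaks at Kcne1l where the others had 2, and replicate 4 had 1 at Kcnj16 where the others had 0. The part of list length in these values was not tested.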

How the results depend on the processing

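Between SOX2+ and SOX2-, the number of Kcn genes past the threshold was 0 of 74 as reported, beside 0.891% of all genes tested. It was 2 of 26 with equal peak numbers (Kcnj10 and Kcnq5, beside 2.54%). It was 1 of 46 with the stronger 50% of each list by score (Kcnj10, beside 0.651%). With same-count genes left out it was 1 of 73 (Kcnj10, beside 1.86%). Without single libraries of the SOX2 sort it ranged from 0 to 2, beside 0.599% to 1.4% of all genes. Those passing were Kcna5 and Kcne1l without SOX2- replicate 1 (beside 1.32%) and Kcnj12 and Kcnv1 without SOX2- replicate 3 (beside 0.958%). At Kcnv1 SOX2- replicate 3 held 2 peaks, every other SOX2- list 0 and all remaining lists 1. Without that library the Kcnv1 counts did not vary within any group. Without SOX2+ replicate 2 the genes passing were Kcna10 and Kcnk13 (beside 1.4%). For the second sort the number was 2 of 64 with that sort's libraries alone (Kcnb2 and Kcnc4, beside 2.52%). Without single libraries of the SOX2 sort it was 0 to 1, beside 0.225% to 0.55%. The share of Kcn genes with an unadjusted limma p under 0.05 between SOX2+ and SOX2- was 10.8% as reported, beside 13.3% of all genes. It was 16.4% beside 15.6% with same-count genes left out and 19.2% beside 10.7% with equal peak numbers. With the stronger 50% of each list it was 21.7% beside 11.2%, and with gene-end peaks only 4.17% beside 5.97%. The Kcnj10 difference was positive under all 24 alternatives run, from 0.15 to 1.62, with a limma adjusted p of 0.00414 to 0.999. Differences turned to 0 for Rest (second sort) with equal peak numbers, to -0.21 and -0.16 for Kcnk13 with the stronger 50% of each list and a 10 kb window, and to 0.36 for Kcnk9 (second sort) with gene-end peaks only. SOX2+-only regions numbered 14 as reported. They numbered 5 of 55 Kcn regions with equal peak numbers (9.09%, beside 4.77% of all regions). With the stronger 50% they numbered 5 of 121 (4.13%, beside 3.5%), and 6 when 4 of 4 libraries were required (1.8%, beside 1.61%). Without single libraries they numbered 14 to 30 (4.19% to 8.98%, beside 4.1% to 8.83%). There the rule was loosened to all but 1 of the group's remaining lists (all remaining lists in the second sort). SOX2--only regions numbered 7, then 1 with equal numbers (1.82%, beside 2.84%) and 1 with the stronger 50% (0.826%, beside 1.05%). They numbered 0 with 4 of 4 required (beside 0.158%), and 7 to 30 without single libraries (2.1% to 8.98%, beside 1.54% to 8.41%). SOX2+/MKI67+-only regions numbered 16, then 1 with equal numbers (1.82%, beside 2.15%) and 5 with the stronger 50% (4.13%, beside 3.68%). They numbered 24 to 60 without single libraries (7.19% to 18%, beside 5.75% to 13.9%). SOX2+/MKI67--only regions numbered 2, then 1 (1.82%, beside 2.11%) and 1 (0.826%, beside 0.854%). Without single libraries they numbered 4 to 25 (1.2% to 7.49%, beside 1.22% to 4.83%). The difference in the total Kcn share ranged from -6.13 to 8.87 per 10000 without single libraries. Over all genes, the 127 calls of the SOX2 sort became 231 with equal numbers, 72 with the stronger 50%, 45 with gene ends only and 233 with same-count genes left out, and the 32 of the second sort 56, 29, 24 and 0, and 315 with its libraries alone and 12 with a peak required in at least 4 libraries. With the replicate number as a block, 0 Kcn genes passed in either sort, of 60 and 32 genes called; deviations of same-numbered libraries correlated at 0.029, -0.36, -0.0303 and 0.192 in the SOX2 sort, and at -0.00733, 0.406, 0.0782 and -0.181 after list length was fitted, so no pairing was taken from the numbers. The fit without same-count genes and the one that gave overlapping genes each peak were chosen after seeing the data. The cause of these shifts was not tested. Short lists limit what can be seen: a weak peak missing from a list of 7009 may be listed in one of 26206.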
